A study of Mus musculus with 34 samples.

Results

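Serpins are a family of proteins, most of which inhibit serine proteases, and the liver secretes many of them into plasma. All protein-coding genes whose symbol starts with Serpin were taken from 3 deposited tables of RNA sequencing values of mouse liver tumors and livers. There were 62 such genes among 47049 gene symbols in the tables. All 62 were in the mixed-strain table, 32 were in the FVB table, 30 were in the table of Rag1-/- livers, and 28 were in all 3 tables. A set of 18 was counted as liver-secreted, and the other 44 as other serpins.

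The libraries came from 34 samples in 7 groups. All mice carried LAP-tTA, which drives transgenes in the liver, and TRE-MYC, and MYC tumors formed once doxycycline was withdrawn. Arid1a encodes a subunit of a chromatin remodeling complex. On a mix of C57/B6, 129 and FVB, 8 Het tumors (Arid1a fl/+ with Alb-cre) were set against 8 WT tumors (Arid1a fl/fl without Cre), all from mice about 90 days old. On FVB there were 4 Homo tumors (Arid1a fl/fl with Alb-cre) from mice aged about 100 days, 4 Het tumors from mice of about 70 days and 4 WT tumors from mice of about 55 days. In the FVB mice age and genotype cannot be told apart. Tumors were collected at death. Alb-cre acts in hepatocytes, and cells of a tumor in which it did not act keep the floxed alleles whole. Cre was present in Homo and Het tumors and absent from WT tumors, so Cre and loss of Arid1a cannot be told apart. The last set came from Rag1-/- mice, which lack mature lymphocytes, at about 42 days. Their genotype is given as WT with LAP-tTA and TRE-MYC, on FVB. Livers were taken 14 days after an adenovirus with human ARID1A (ad-ARID1A, 3 livers) or with Cre (ad-Cre, 3 livers). These samples are labelled as liver, not tumor. Both groups received a virus, and Cre came only with that of the ad-Cre livers.

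A serpin presents a reactive centre loop as bait. When the target protease cuts it, the loop folds into the body of the serpin and the protease is trapped. Hepatocytes make α1-antitrypsin (Serpina1a to Serpina1e in the mouse), relatives of antichymotrypsin (the Serpina3 genes), inhibitors of clotting, fibrinolysis and complement, and hormone carriers that kept the fold without inhibiting a protease. The α1-antitrypsin and Serpina3 genes sit in clusters of near copies, and the loop sets which protease a copy can catch.

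The sequence of that loop was read for 9 genes of these clusters, because the results below differ among the copies. Each stretch is part of the last coding exon on chromosome 12 (GENCODE M21, GRCm38), written 5′ to 3′ on the coding strand. In Serpina1a to Serpina1e the 81 bases are aligned without gaps, and the capitals are the 18 positions at which the 5 genes are not all alike. The Serpina1a stretch is at chr12:103853750-103853830 and that of Serpina1e at chr12:103947093-103947173, both on the minus strand.

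Serpina1a: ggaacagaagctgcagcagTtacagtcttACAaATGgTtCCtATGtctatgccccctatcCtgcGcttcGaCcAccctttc
Serpina1b: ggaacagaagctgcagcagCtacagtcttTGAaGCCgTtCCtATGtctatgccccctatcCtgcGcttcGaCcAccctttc
Serpina1c: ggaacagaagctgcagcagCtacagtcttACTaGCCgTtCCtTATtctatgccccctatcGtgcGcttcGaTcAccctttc
Serpina1d: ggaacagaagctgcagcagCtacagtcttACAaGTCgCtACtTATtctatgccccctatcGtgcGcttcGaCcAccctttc
Serpina1e: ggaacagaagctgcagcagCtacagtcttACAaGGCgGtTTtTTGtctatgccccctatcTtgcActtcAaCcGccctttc

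In the Serpina3 genes the same stretch differs in length, from 81 bases in Serpina3c to 90 in Serpina3m and Serpina3n. Here the capitals mark the part between the hinge codons and the conserved codons after the loop. Serpina3k is at chr12:104345269-104345352 on the plus strand, and Serpina3c at chr12:104147307-104147387 on the minus strand.

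Serpina3c: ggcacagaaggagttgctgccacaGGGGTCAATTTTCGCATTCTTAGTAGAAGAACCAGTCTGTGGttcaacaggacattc
Serpina3k: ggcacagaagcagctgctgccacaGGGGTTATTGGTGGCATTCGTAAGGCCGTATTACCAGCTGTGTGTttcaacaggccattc
Serpina3m: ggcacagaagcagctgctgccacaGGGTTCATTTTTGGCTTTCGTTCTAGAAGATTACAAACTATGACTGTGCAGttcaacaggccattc
Serpina3n: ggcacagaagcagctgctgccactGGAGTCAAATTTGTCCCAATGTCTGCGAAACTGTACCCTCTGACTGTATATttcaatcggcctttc

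Over the whole coding sequence the Serpina1 genes shared 96.3% to 98.5% of aligned bases in their 10 pairs, and the 4 Serpina3 genes 83.7% to 91.8% in their 6 pairs. Of all 50-base windows of its transcripts, 26.7% for Serpina1c, 48.6% for Serpina1a, 65.4% for Serpina1e and 71.8% for Serpina1b occurred in no other serpin gene. Serpina3k reached 86.0% and Serpina3c 95.7%. The labels and notes do not say how reads that map to several genes were counted, so the values of single Serpina1 copies are uncertain. Serpina3k and Serpina3m also share exons on the same strand in the annotation. Exons of Serpina11 and Serpina9 overlap Gm28577 on the same strand. Exons of Serpinc1, Serpinb6a, Serpina1c, Serpine3 and Serpinb9b overlap genes of the opposite strand. The labels do not say whether strand was kept, so reads of such partners cannot be told apart.

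The promoters of the Serpina1 genes are shown because these 5 genes did not differ alike between groups. RefSeq promoter windows on GRCm38.p6, 300 bases each, were available for 13 of the 18 liver-secreted serpins. A stretch of 76 bases before the annotated start is printed for each Serpina1 gene, with capitals at the 10 positions where the 5 genes are not all alike.

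Serpina1a: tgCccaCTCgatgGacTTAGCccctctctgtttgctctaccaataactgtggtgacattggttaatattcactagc
Serpina1b: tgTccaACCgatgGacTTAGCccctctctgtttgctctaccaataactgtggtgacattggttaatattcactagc
Serpina1c: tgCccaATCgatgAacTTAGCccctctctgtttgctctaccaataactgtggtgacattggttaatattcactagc
Serpina1d: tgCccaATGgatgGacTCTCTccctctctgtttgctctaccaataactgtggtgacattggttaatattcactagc
Serpina1e: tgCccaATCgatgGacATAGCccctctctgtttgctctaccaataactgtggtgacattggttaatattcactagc

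These windows are on the minus strand, that of Serpina1a at chr12:103863625-103863700 and that of Serpina1e at chr12:103956960-103957035. Of the 76 positions, 66 are the same in all 5. The 10 that differ lie in the part farthest from the start.

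Depth, read from the size of 1 read among low values, had a median of 4.01 M reads in the mixed-strain libraries (range 2.27 to 5.28 M), 9.42 M in the FVB libraries (6.63 to 12 M) and 9.12 M in the Rag1-/- libraries (8.71 to 10.6 M). Low serpins were therefore least precise in the mixed-strain set. All 12 hepatocyte markers were present in each table, and their summed level was 77579 to 95617 CPM (reads of a gene scaled to a common library total) in the Rag1-/- livers, against 2484 to 14467 CPM in the tumors. The tables were normalized separately, so these sums are not a test of tumor against liver. The top gene also differed. It was Apob with 0.13% to 0.54% of mixed-strain libraries, Gm26917 with 7.3% to 14.0% of FVB libraries and Alb with 3.7% to 4.6% of Rag1-/- libraries. Arid1a averaged 8.07 ± 0.14 in mixed-strain Het tumors and 8.47 ± 0.21 in WT (SD, n = 8 each). In FVB it was 7.74 ± 0.23 in Homo, 7.77 ± 0.31 in Het and 8.09 ± 0.25 in WT (n = 4 each). Gene-level values include exons outside the deleted part, and mouse Arid1a does not report the human virus gene. Whether samples of a group were separate mice is not labelled, so p-values measure the spread between these samples, which may be technical.

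Levels below are log2(CPM + 0.5) in the mixed-strain table. In the FVB and Rag1-/- tables they are log2 CPM with a floor at 0, where anything at or under 1 CPM is listed at 0. Fold changes are differences on these scales and understate the change of low genes. Of the 62 members, 34 passed the mixed-strain filter of a mean of at least 0.5 CPM. The 28 that did not pass averaged under 0.50 CPM each, and 12 of them were at 0 in all 16 libraries. All 18 liver-secreted serpins were tested in each table, with 16, 14 and 12 other serpins in the mixed-strain, FVB and Rag1-/- tables. Most of those not tested were Serpinb genes, whose products stay largely inside cells.

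Per kilobase of exon, Serpinf2 was the most abundant serpin in all 5 tumor groups. It encodes α2-antiplasmin, the plasma inhibitor of plasmin. Its level was 197 ± 31 CPM per kb in mixed-strain Het tumors and 221 ± 49 in WT (n = 8 each). In FVB tumors it was 248 ± 16 in Homo, 255 ± 48 in Het and 170 ± 27 in WT (n = 4 each). In the Rag1-/- livers the order was led by Serpina3k, with 3412 ± 299 CPM per kb in ad-ARID1A and 4138 ± 253 in ad-Cre livers (n = 3 each), followed by Serpina1e and Serpina1b. Exons of Serpina1e gave 1300 ± 1042 CPM per kb in ad-ARID1A and 3289 ± 1029 in ad-Cre livers.

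All 18 liver-secreted serpins together took 0.197% ± 0.050 of a library in mixed-strain Het tumors and 0.305% ± 0.104 in WT. In FVB tumors their share was 0.220% ± 0.025 in Homo, 0.199% ± 0.039 in Het and 0.203% ± 0.026 in WT. In Rag1-/- livers it was 1.96% ± 0.25 in ad-ARID1A and 2.55% ± 0.20 in ad-Cre livers. The ad-ARID1A livers (1.67% to 2.15%) did not overlap the ad-Cre livers (2.40% to 2.78%), whereas the Het and WT tumors overlapped in both strains. Among mixed-strain libraries the highest share, 0.541%, was in WT library 2, the shallowest with 2.27 M reads. The lowest, 0.120%, was in Het library 6, the deepest with 5.28 M reads. The part of depth in these shares was not tested. The tables were normalized separately, so tumors and livers are set side by side here without a test.

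**Figure D1:**
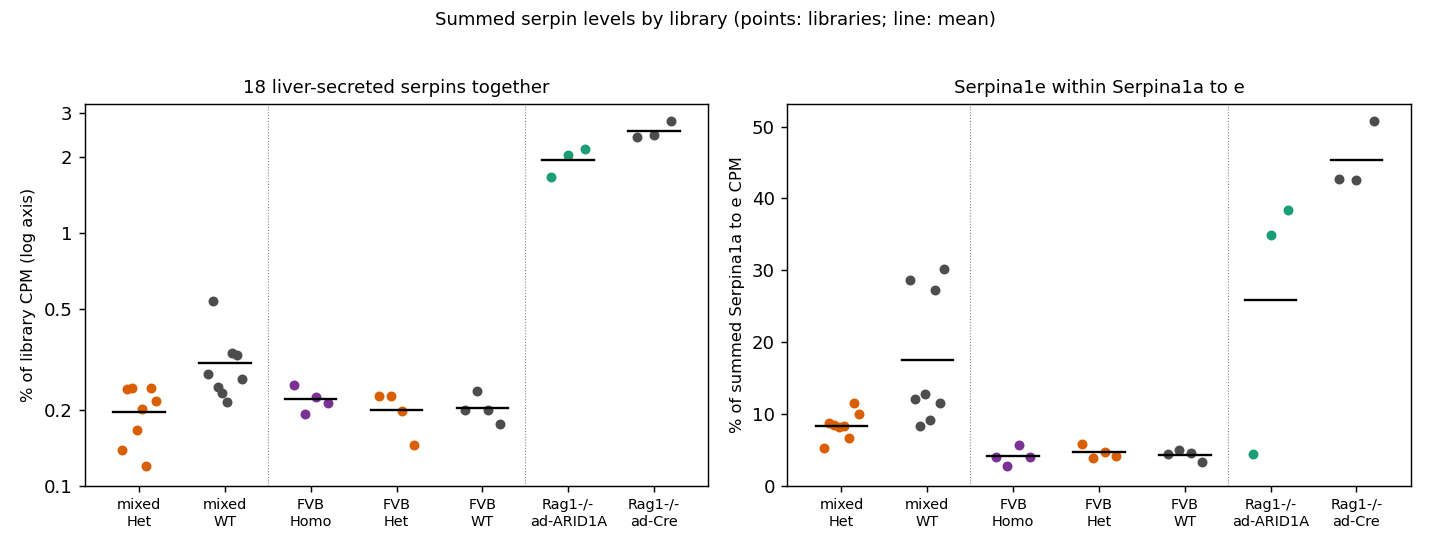
Left, the share of each library's CPM taken by the 18 liver-secreted serpins (percent, log axis); right, the share of Serpina1e in the summed CPM of Serpina1a to Serpina1e (percent). Points are libraries and lines group means; tumor groups lie between 0.120% and 0.541% on the left, and the Rag1-/- livers between 1.67% and 2.78%.

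The first comparison asked how serpins differ between mixed-strain tumors with a single floxed Arid1a allele and Cre, and WT tumors. All 18 liver-secreted serpins had a lower mean in Het tumors, with a median log2 fold change of -0.80. The 16 other serpins were divided, 8 higher and 8 lower, with a median of 0.01 that ran from -0.21 to 0.15 with 1 library left out. Over all 17552 genes tested, 43.9% were lower and the median was 0.05. No serpin passed an adjusted p under 0.05 with limma, a threshold that 0.16% of all genes passed. At an unadjusted p under 0.05, 14 of the 18 liver-secreted and 2 of the 16 other serpins were lower, against 7.5% of all genes, and 1 serpin was higher, against 8.29%. No serpin had Het and WT groups that did not overlap, a pattern that 0.137% of all genes showed.

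Among the α1-antitrypsin genes, Serpina1e showed the widest difference. Its lowest, median and highest values were 3.51, 4.77 and 5.28 in Het tumors, against 4.71, 5.97 and 7.81 in WT tumors. The log2 fold change was -1.63 ± 0.44 SE (limma adjusted p = 0.133). The WT spread came from libraries 1, 6 and 8, which had 188 to 223 CPM, whereas the other 5 had 25.7 to 80.0 CPM and the 8 Het libraries 10.9 to 38.4 CPM. Serpina1e made up 8.39% ± 1.89 of the summed Serpina1a to Serpina1e level in Het tumors and 17.5% ± 9.4 in WT tumors. The other copies had smaller differences, with -0.81 ± 0.23 SE for Serpina1d, -0.67 ± 0.22 SE for Serpina1c, -0.56 ± 0.17 SE for Serpina1a and -0.45 ± 0.18 SE for Serpina1b.

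The Serpina3 genes, relatives of antichymotrypsin, had the largest differences and the largest spread. Serpina3k ran from -0.47 through a median of 2.36 to 3.70 in Het tumors, against 1.01, 3.69 and 8.95 in WT tumors. The difference was -2.45 ± 0.90 SE (limma adjusted p = 0.217), and the groups overlapped. WT library 2 was highest for Serpina3k with 494 CPM, and WT library 1 lowest with 1.51 CPM. Serpina3m differed by -2.24 ± 0.70 SE, Serpina3n by -1.89 ± 0.85 SE and Serpina3c by -1.52 ± 0.54 SE. Serpina3n, an acute phase gene, was at 0.72 in Het library 6 and up to 7.68 in another Het library, while WT ran from 4.98 to 8.96. Without WT library 2 and Het library 5, the Serpina3k difference was -1.92 and that of Serpina3c was -1.08.

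Inhibitors of clotting came next. Serpinc1, antithrombin, had 7.60, 8.30 and 8.81 in Het tumors, against 8.42, 8.79 and 9.34 in WT tumors, a difference of -0.48 ± 0.17 SE. Serpind1, heparin cofactor II, had 4.65, 6.41 and 8.07 in Het and 6.36, 7.56 and 8.60 in WT, a difference of -1.27 ± 0.45 SE. Serpina10, which inhibits factor X with protein Z as cofactor, was nearly level at 7.55 ± 0.29 in Het and 7.67 ± 0.48 in WT. Serpinf2 was nearly level too, at 8.82 ± 0.24 in Het and 8.98 ± 0.30 in WT. The 2 liver-secreted serpins with the smallest differences in this set were therefore Serpina10 and Serpinf2, the first with -0.12 ± 0.18 SE and the second with -0.15 ± 0.13 SE. Serpinf2 was highest in the shallowest library, WT library 2, with 743 CPM, and lowest in the deepest, Het library 6, with 328 CPM. The part of depth in its level was not tested.

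Serping1, the C1 inhibitor of complement and contact activation, had the smallest p of the family. Its values were 4.74, 6.33 and 6.97 in Het tumors, against 6.54, 7.65 and 8.96 in WT tumors. The difference was -1.43 ± 0.38 SE (limma adjusted p = 0.124). Serpinf1, an anti-angiogenic serpin that inhibits no protease, differed by -0.70 ± 0.28 SE. The hormone carriers Serpina6 (for corticosteroids) and Serpina7 (for thyroxine) differed by -0.79 ± 0.40 SE and -0.85 ± 0.69 SE, within wide overlap. Without Het library 5 the Serpina6 difference was -0.47, and without Het library 6 that of Serpina7 was -0.47. Serpina11 differed by -0.71 ± 0.30 SE.

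**Figure D2:**
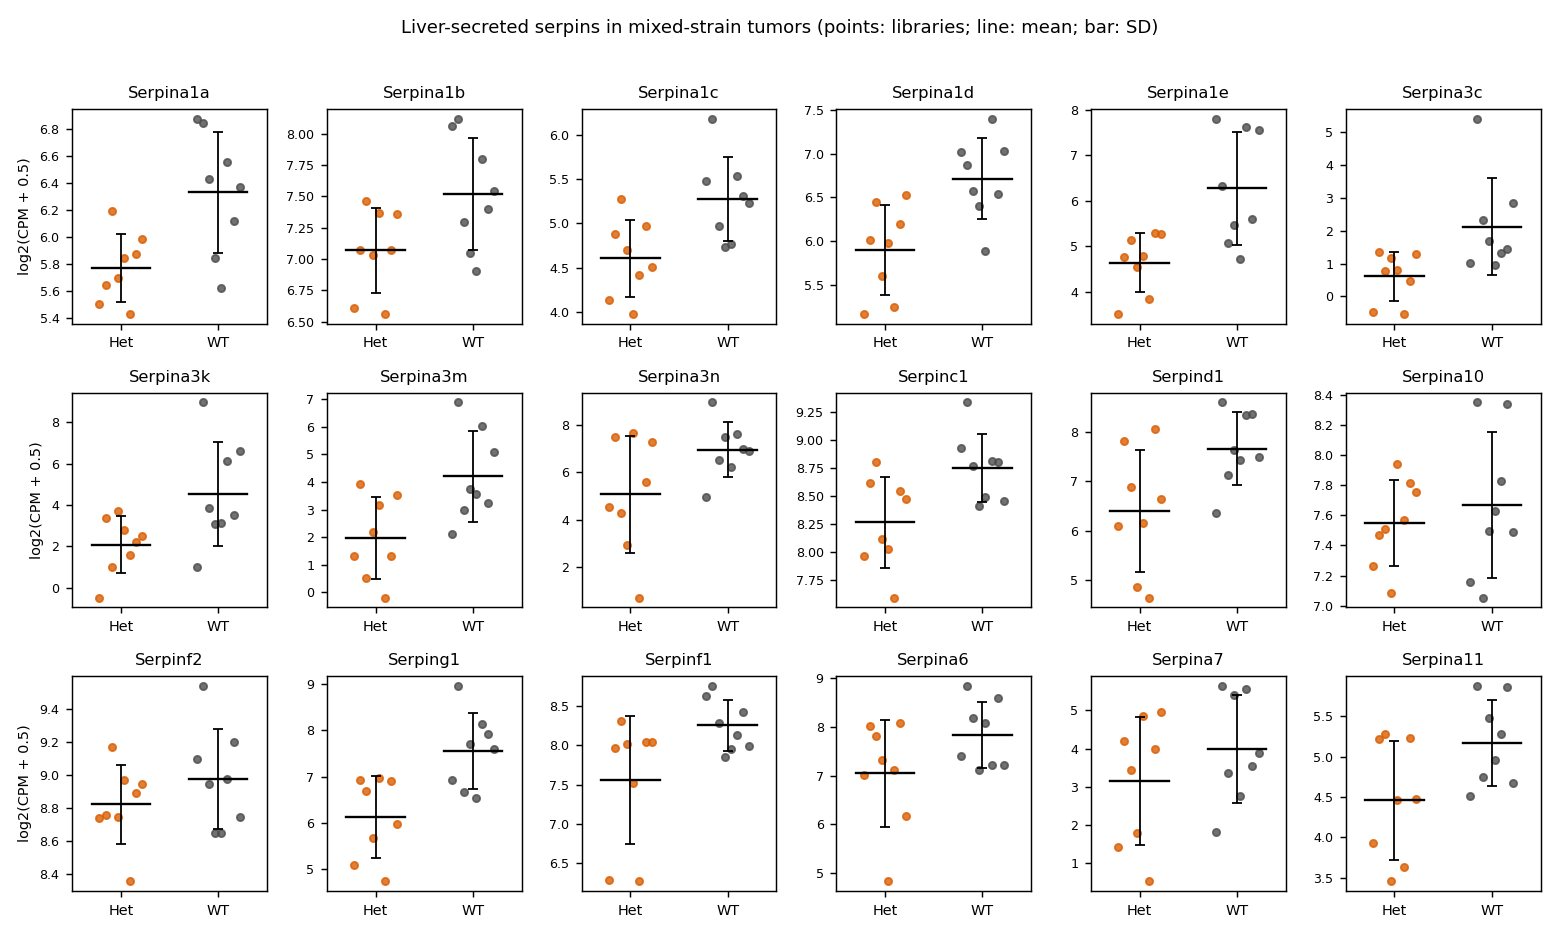
Levels of the 18 liver-secreted serpins in mixed-strain tumors, Het (n = 8) left of WT (n = 8), on the log2(CPM + 0.5) scale; points are libraries, lines means and bars SD. All 18 means are lower in Het, and Het and WT points overlap in each panel.

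Of the other serpins, Serpinh1 stood nearest to the secreted ones. It encodes the collagen chaperone of the endoplasmic reticulum and had 5.34, 5.73 and 6.86 in Het tumors, against 6.01, 6.71 and 7.39 in WT tumors. The difference was -0.86 ± 0.24 SE (limma adjusted p = 0.137). Without Het library 2 it was -1.0 with an adjusted p of 0.0458, so 1 library decided that call. Serpina5, the protein C inhibitor, differed by -1.27 ± 0.40 SE at a low level of 1.25 ± 1.05 in Het and 2.52 ± 0.55 in WT. Neuroserpin, Serpini1, was 1.56 ± 0.50 in Het and 0.99 ± 0.36 in WT, a difference of 0.58 ± 0.24 SE and the sole higher serpin at an unadjusted p under 0.05. Serpine2, which inhibits thrombin and plasminogen activators on cell surfaces, had a difference of -0.84 ± 0.66 SE. The Serpinb genes had small or uncertain differences. They were 0.95 ± 0.57 SE for Serpinb9b, 0.66 ± 0.45 SE for Serpinb6b, 0.46 ± 0.22 SE for Serpinb6a, 0.44 ± 0.51 SE for Serpinb8, 0.13 ± 0.28 SE for the granzyme B inhibitor Serpinb9, and -0.66 ± 0.58 SE for Serpinb1a, which inhibits neutrophil proteases. Vaspin (Serpina12) differed by -0.19 ± 1.04 SE, Serpina3f by 0.16 ± 0.36 SE, Serpina3g by 0.24 ± 0.45 SE, Serpina3i by -0.43 ± 0.42 SE and Serpine3 by -0.11 ± 0.36 SE.

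Partners of the serpins were described from lists. Of 28 target proteases, 21 were lower and 7 higher in Het tumors with a median of -0.50, and 13 were lower at an unadjusted p under 0.05, against 7.5% of all genes. The smallest p values were those of Tmprss6, a liver protease, with -2.66 ± 0.68 SE, and clotting factor F10 with -0.83 ± 0.23 SE. Of 15 cofactors and receptors 12 were lower, including A2m, a broad protease trap, with -2.22 ± 0.54 SE and Proz, the cofactor of Serpina10, with -1.13 ± 0.30 SE. Of 20 measured regulators of liver serpin genes 16 were lower with a median of -0.26, and the leading ones, Il6st with -0.56 ± 0.17 SE and Il6ra with -1.0 ± 0.32 SE, are receptor chains for IL-6. The 15 collagen partners of Serpinh1 had a median of -0.14 with none at an unadjusted p under 0.05, and Col4a1 and Col6a1 had 0.19 ± 0.14 SE and -0.40 ± 0.33 SE. None of these genes passed over all genes tested.

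Markers of several cell types differed with the same groups. All 12 hepatocyte markers were lower in Het tumors, with a median of -1.10 and a summed level of 2484 to 6229 CPM in Het and 5450 to 12994 CPM in WT. All 9 measured neutrophil markers were lower, with 6.26 to 38.2 CPM in Het and 13.5 to 173 CPM in WT, and Ly6g was at 0 in Het. Endothelial markers were lower in 7 of 9 (107 to 304 CPM in Het, 155 to 472 CPM in WT), and stellate cell and fibroblast markers in 9 of 11 (216 to 923 CPM in Het, 183 to 1188 CPM in WT). Of 12 macrophage and Kupffer cell markers 9 were lower (473 to 999 CPM in Het, 603 to 1546 CPM in WT). Cd163 fell by 2.25 ± 0.41 SE and was the sole list gene of this comparison to pass (limma adjusted p = 0.032). Erythroid markers were lower in 8 of 8 (6.44 to 322 CPM in Het, 20.4 to 357 CPM in WT). Markers of biliary cells, of T and NK cells, and of B cells and plasma cells had medians of 0.03, 0.05 and 0.03. In bulk tissue, fewer cells of a type and less RNA per cell cannot be told apart. The part of these markers in the serpin differences was not tested.

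The FVB tumors allowed loss of both Arid1a alleles and of a single one to be compared with the same 4 WT tumors. The largest differences were those of the Serpina3 cluster, which was lower in Homo and Het tumors, and Serpinf2 was higher in both. In Homo tumors 10 of the 18 liver-secreted serpins were lower than in WT with a median of -0.01, and in Het tumors 13 of 18 with a median of -0.18. With 1 library left out, the Homo median ran from -0.18 (without WT library 1) to 0.12 (without WT library 2), and the Het median from -0.37 (without WT library 1) to -0.05 (without Het library 4). Of all 16140 genes 52.9% were lower for Homo, with a median of -0.02, and 47% for Het, with a median of 0.02. Among other serpins, 10 of 14 were lower in each case, with medians of -0.21 in Homo and -0.13 in Het. The Homo value was -0.02 without WT library 2 and turned to 0.15 without WT libraries 1 and 2, and the Het value was -0.48 without Het library 1. No serpin passed an adjusted p under 0.05 with limma in either comparison, where 0.0434% of all genes passed for Homo and 0.0248% for Het. At an unadjusted p under 0.05 there were 5 lower and 1 higher serpins for Homo and 6 lower and 1 higher for Het. The shares of all genes at that level were 5.64% lower and 4.37% higher for Homo, and 6.07% lower and 8.14% higher for Het. With array weights, a setting that downweights variable libraries, 7 of 32 serpins passed for Het against WT, and 2287 of all 16140 genes passed.

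Serpina3k, Serpina3m and Serpina3c had the largest differences. Serpina3k was at 2.89, 3.33, 2.27 and 3.64 in the Homo tumors and at 1.84, 4.60, 0.83 and 5.28 in the Het tumors, against 4.33, 7.49, 6.77 and 6.24 in the WT tumors. Each Homo library was below each WT library, whereas the Het libraries reached into the WT range. Its differences from WT were -3.18 ± 0.87 SE in Homo (limma adjusted p = 0.229) and -3.07 ± 0.87 SE in Het (0.143).

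Serpina3c was at 0.47, 0.13, 0.49 and 0.27 in Homo and at 0.95, 1.79, 0 and 1.42 in Het, against 1.39, 3.90, 2.94 and 2.79 in WT tumors. The Homo libraries lay near the floor and did not overlap WT. The difference was -2.42 ± 0.47 SE in Homo (limma adjusted p = 0.104) and -1.72 ± 0.47 SE in Het (0.137). Without WT library 1 the Homo difference was -2.87 with an adjusted p of 0.0216, so that library decided the call. Serpina3m, the neighbour of Serpina3k, differed by -2.46 ± 0.68 SE in Homo, with no overlap, and by -2.66 ± 0.68 SE in Het. Groups that did not overlap and were lower made up 1.98% of all genes for Homo against WT, and 4 serpins were among them: Serpina3c, Serpina3k, Serpina3m and Serpina3f. Serpina3f was at 0.01 or listed at 0 in Homo, against 0.27 to 1.58 in WT, and differed by -0.93 ± 0.37 SE in Homo and -0.29 ± 0.37 SE in Het.

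Serpina3n, the acute phase member of the cluster, was less different, at -0.61 ± 0.45 SE in Homo and -0.91 ± 0.45 SE in Het. Serpina3k gave 29.2% ± 15.2 of the summed Serpina3c, k, m and n level in Homo tumors, 33.3% ± 21.9 in Het and 57.0% ± 11.8 in WT. Serpina3n gave 55.1% ± 17.0 in Homo, 51.0% ± 26.8 in Het and 22.1% ± 11.5 in WT. The mean share of Serpina3n was thus the higher one in Homo and Het tumors and that of Serpina3k in WT tumors, with a wide spread and no test.

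Serpinf2 went the other way. It was at 9.25, 9.03, 9.19 and 9.20 in Homo and at 9.43, 9.34, 9.23 and 8.77 in Het, against 8.41, 8.42, 8.85 and 8.78 in WT tumors. Each Homo library was above each WT library, a pattern that 2.09% of all genes showed, and Het overlapped WT by a single library. The differences were 0.55 ± 0.15 SE in Homo (limma adjusted p = 0.227) and 0.58 ± 0.15 SE in Het (0.115). Without Het library 4 the Het difference was 0.72 with an adjusted p of 0.0337, and that of Serpina3m was -3.23 with 0.0389. Without WT libraries 1 and 2 the Serpinf2 differences were 0.35 in Homo and 0.38 in Het, while those of Serpina3k were -3.47 and -3.37.

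The α1-antitrypsin genes were nearly level in FVB tumors. Differences from WT ran from -0.02 ± 0.21 SE (Serpina1b) to 0.20 ± 0.26 SE (Serpina1c) in Homo, and from -0.23 ± 0.21 SE (Serpina1a) to 0.17 ± 0.26 SE (Serpina1c) in Het. Serpina1e was at 3.90 ± 0.47 in Homo, 3.87 ± 0.52 in Het and 3.91 ± 0.47 in WT tumors. Its share of the Serpina1 sum was 4.13% ± 1.20 in Homo, 4.66% ± 0.86 in Het and 4.31% ± 0.73 in WT. The contrast with the mixed-strain tumors was not tested, because the tables were normalized separately.

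The hormone carriers were lower in Het tumors. Serpina7 was at 1.10, 2.39, 2.30 and 1.14 in Homo and at 1.65, 1.43, 0 and 1.69 in Het, against 1.79, 2.80, 3.27 and 2.79 in WT tumors. All 4 Het libraries were below all WT libraries, a pattern that 2.47% of all genes showed and that Serpina12 and Serpina5 shared. Serpina5 lay near the floor, at 0 to 0.55 in Het and 0.85 to 1.14 in WT tumors. Serpina7 differed from WT by -0.93 ± 0.45 SE in Homo and -1.47 ± 0.45 SE in Het. Serpina6 differed by -0.71 ± 0.51 SE in Homo and -1.29 ± 0.51 SE in Het, but WT libraries 1 and 2 had 8.14 and 8.0 whereas libraries 3 and 4 had 6.01 and 5.68. Without libraries 1 and 2 of WT the Serpina6 differences were 0.40 in Homo and -0.17 in Het, so the sign turned in Homo.

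The remaining secreted serpins differed less. Serpind1 had -0.21 ± 0.32 SE in Homo and -0.81 ± 0.32 SE in Het. Serpinc1 had 0.38 ± 0.25 SE in Homo and 0.07 ± 0.25 SE in Het, Serping1 -0.02 ± 0.40 SE and -0.15 ± 0.40 SE, Serpinf1 0.22 ± 0.14 SE and 0.14 ± 0.14 SE, Serpina10 0.14 ± 0.12 SE and -0.15 ± 0.12 SE, and Serpina11 0.55 ± 0.31 SE and 0.15 ± 0.31 SE. Antithrombin and the C1 inhibitor, both lower in mixed-strain Het tumors at an unadjusted p under 0.05, did not reach that level in either FVB comparison, and the difference between the strains was not tested.

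**Figure D3:**
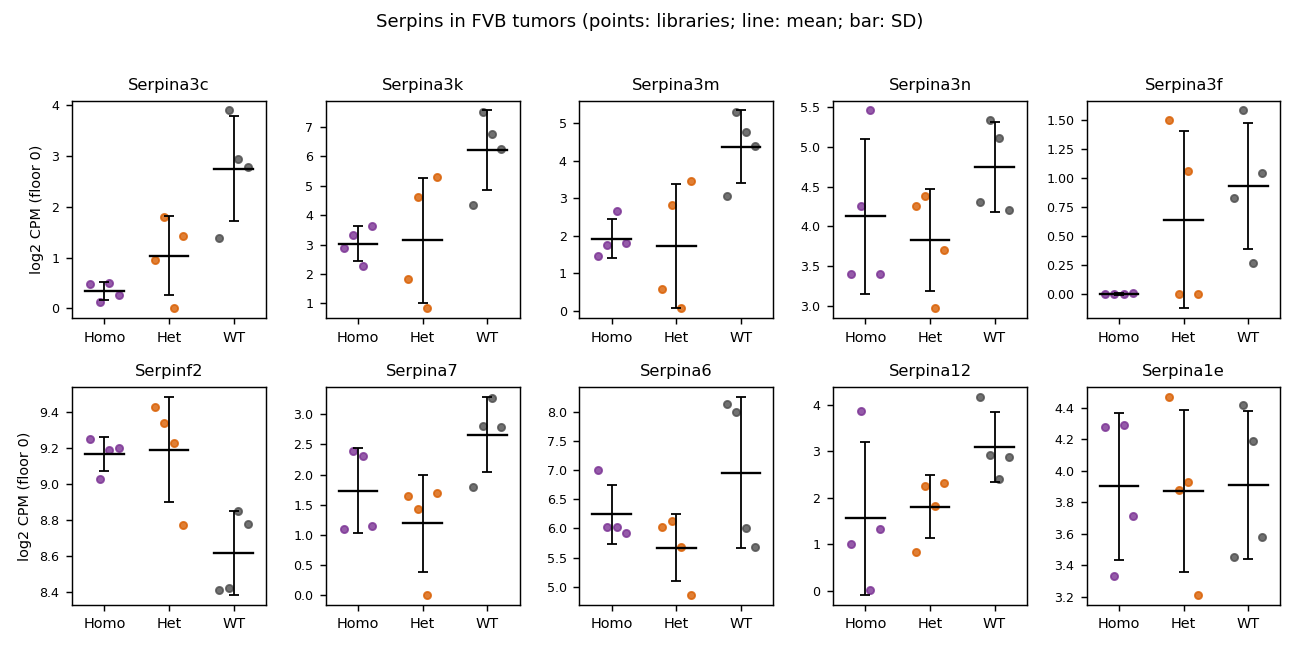
Levels of 10 serpins in FVB tumors, with Homo, Het and WT from left to right (n = 4 each), on the log2 CPM scale with a floor at 0; points are libraries, lines means and bars SD. Serpina3c, Serpina3k and Serpina3m of Homo tumors lie below all WT points, Serpinf2 of Homo tumors lies above them, and Serpina1e is level.

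Of the other serpins in FVB, Serpina12 differed by -1.54 ± 0.67 SE in Homo (-1.02 without Homo library 3, -2.31 without Homo library 2) and -1.29 ± 0.67 SE in Het, and Serpina5 by 0.00 ± 0.36 SE and -0.69 ± 0.36 SE. Serpinh1 differed by -0.49 ± 0.36 SE in Homo and -0.64 ± 0.36 SE in Het. Without WT library 1 these Serpinh1 values were -0.17 and -0.32, and without both WT libraries 1 and 2 they were 0.19 and 0.04, so the direction rested on those libraries. None of the remaining genes reached an unadjusted p under 0.05, and their differences are given with Homo before Het. Serpine2 differed by -0.30 ± 0.76 SE and 0.08 ± 0.76 SE, and Serpini1 by 0.31 ± 0.34 SE and 0.25 ± 0.34 SE. Among the Serpinb genes, Serpinb9 differed by -0.16 ± 0.40 SE and -0.69 ± 0.40 SE, Serpinb6a by -0.11 ± 0.23 SE and 0.18 ± 0.23 SE, Serpinb6b by -0.26 ± 0.43 SE and -0.11 ± 0.43 SE, and Serpinb1a by 0.04 ± 0.50 SE and -0.64 ± 0.50 SE. Serpina3g differed by -0.34 ± 0.49 SE and -0.16 ± 0.49 SE, Serpina3i by -0.41 ± 0.34 SE and -0.08 ± 0.34 SE, and Serpine3 by -0.05 ± 0.36 SE and 0.19 ± 0.36 SE.

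Homo and Het tumors were also compared with each other. Of the liver-secreted serpins 15 of 18 were higher in Homo, with a median of 0.19 (0.10 to 0.36 with 1 library left out), while 41.1% of all genes were higher with a median of -0.04. No serpin had groups that did not overlap, against 2.67% of all genes, and no gene of the table passed an adjusted p under 0.05 with limma (0% of all genes). The sole serpin at an unadjusted p under 0.05 was Serpina10, at 7.08 ± 0.17 in Homo and 6.80 ± 0.16 in Het, a difference of 0.28 ± 0.12 SE, where 1.33% of all genes were higher at that level. Serpina1a differed by 0.41 ± 0.21 SE (0.24 without Het library 4) and Serpind1 by 0.60 ± 0.32 SE (0.38 without Het library 3, 0.96 without Het library 1). For Serpina3k the interval was wide, at -0.11 ± 0.87 SE.

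Among partners in FVB, target proteases had medians of 0.05 in Homo and -0.07 in Het against WT, over 26 genes. In Homo, Prtn3 differed by 1.0 ± 0.27 SE and F2 by 0.41 ± 0.17 SE. In Het, Masp1, a complement protease held by the C1 inhibitor, differed by -1.68 ± 0.40 SE and F9 by -1.37 ± 0.43 SE. Cofactors and receptors were led by Sdc4, a heparan sulfate proteoglycan, with 0.95 ± 0.26 SE in Homo and 1.14 ± 0.26 SE in Het. Mug2, a relative of A2m, had -1.46 ± 0.40 SE in Homo, and Lrp2, an endocytic receptor, 3.12 ± 0.74 SE in Het. Regulators had medians of 0.23 in Homo and 0.11 in Het, and Il6st was the leading gene in each, with -0.59 ± 0.19 SE in Homo and -0.71 ± 0.19 SE in Het. Cebpb had 0.44 ± 0.16 SE in Homo. Collagen partners had medians of -0.36 in Homo and 0.00 in Het, with P4hb at 0.40 ± 0.15 SE and 0.42 ± 0.15 SE, Col5a1 at -1.15 ± 0.39 SE in Homo and P4ha2 at -1.37 ± 0.59 SE in Het. Between Homo and Het the medians were 0.16 for proteases, 0.08 for cofactors, 0.08 for regulators and -0.32 for collagen partners.

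Cell type markers differed with the FVB groups as well. Hepatocyte markers were lower in 6 of 12 in Homo and 8 of 12 in Het, with summed levels of 7547 to 13387 CPM in Homo, 4850 to 11174 CPM in Het and 7710 to 14467 CPM in WT. Neutrophil markers summed to 1.80 to 160 CPM in Homo, 0 to 1.19 CPM in Het and 2.53 to 107 CPM in WT, with Ly6g at 0 or not listed in each group and S100a8 and S100a9 at 0 in Het. Erythroid markers were lower in 8 of 8 in Homo and in Het, at 27.8 to 103 CPM in Homo, 23.3 to 26.2 CPM in Het and 21.2 to 521 CPM in WT. Stellate cell and fibroblast markers were lower in 11 of 11 in Homo and 9 of 11 in Het, at 119 to 687 CPM in Homo, 445 to 613 CPM in Het and 451 to 746 CPM in WT. Lrat, a stellate cell gene, fell by 2.5 ± 0.31 SE in Het and was the sole list gene in FVB to pass (limma adjusted p = 0.0234). Macrophage and Kupffer cell markers were lower in 7 of 12 in Homo and 5 of 12 in Het, at 343 to 577 CPM in Homo, 402 to 640 CPM in Het and 377 to 589 CPM in WT. The medians of this list were -0.165 in Homo and 0.13 in Het. Its smallest p values were those of Clec4f and Marco in Homo and of Clec4f and Vsig4 in Het. The Kupffer cell genes Clec4f and Vsig4 were low, with -2.91 ± 0.69 SE and -1.75 ± 0.51 SE in Homo. In Het they had -2.93 ± 0.69 SE and -2.10 ± 0.51 SE. Lyz2, by contrast, had 0.30 ± 0.24 SE in Homo and 0.67 ± 0.24 SE in Het. The Homo and WT tumors did not overlap for Clec4f, and the Het and WT tumors for neither Clec4f nor Vsig4. Endothelial markers were lower in 8 of 9 in each, at 103 to 166 CPM in Homo, 87.8 to 155 CPM in Het and 116 to 269 CPM in WT. Their part in the serpin differences was not tested.

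The Rag1-/- livers addressed the opposite change, added human ARID1A. Here serpins differed in both directions. Of the liver-secreted serpins 12 were lower and 6 higher in ad-ARID1A than in ad-Cre livers, with a median of -0.16, and of the other serpins 4 were lower and 8 higher, with a median of 0.19. The median of the other serpins turned to -0.03 without library 1 of ad-ARID1A or without library 3 of ad-Cre and to -0.145 without both, and that of the liver-secreted ones was -0.07 without library 3 of ad-Cre. Of all 14074 genes 33.7% were lower and 66.1% higher, with a median of 0.09. Serpins that passed an adjusted p under 0.05 with limma numbered 0, against 0.32% of all genes. At an unadjusted p under 0.05, 5 serpins were lower and 4 higher, where 2.62% of all genes were lower and 9.88% higher. With 3 livers a group, 4 serpins were lower and 3 higher without overlap, against 3.47% and 13.9% of all genes.

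Serpina7, the thyroxine carrier, was at 5.18, 5.52 and 4.78 in ad-ARID1A livers, against 3.87, 2.27 and 3.78 in ad-Cre livers. All 3 ad-ARID1A livers were above all ad-Cre livers. The difference was 1.85 ± 0.38 SE and had the smallest p of the family (limma adjusted p = 0.0907). The corticosteroid carrier Serpina6 was at 6.59, 6.52 and 6.22 in ad-ARID1A livers, against 5.73, 6.29 and 5.41 in ad-Cre livers, a difference of 0.63 ± 0.20 SE with overlap.

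All 5 α1-antitrypsin genes had lower means in ad-ARID1A livers, and copies differed in how. Serpina1e was at 7.58, 11.42 and 11.72 in ad-ARID1A livers, against 12.14, 12.04 and 12.82 in ad-Cre livers. Library 1 of ad-ARID1A stood far below the rest. The difference was -2.09 ± 0.87 SE with all livers (limma adjusted p = 0.374) and -0.76 without that library. In the same library Serpina1e made up 4.48% of the Serpina1 sum, against 34.9% and 38.4% in the other ad-ARID1A livers and 42.5% to 50.7% in ad-Cre livers. Serpina1b was at 10.86, 11.03 and 11.14 in ad-ARID1A livers, against 11.36, 11.24 and 11.40 in ad-Cre livers, and differed by -0.32 ± 0.11 SE without overlap. Serpina1d differed by -0.61 ± 0.23 SE, Serpina1c by -0.28 ± 0.13 SE and Serpina1a by -0.27 ± 0.14 SE. Without library 1 of ad-ARID1A the differences of Serpina1d and Serpina1a were -0.36 and -0.11. Without library 3 of ad-Cre those of Serpina1d and Serpina1c were -0.40 and -0.135.

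In the Serpina3 cluster, Serpina3c was at 9.08, 8.29 and 8.26 in ad-ARID1A livers, against 8.41, 8.53 and 0.58 in ad-Cre livers. Library 3 of ad-Cre was thus near the floor for a gene that the other 5 livers had at 8.26 or more. The difference was 2.70 ± 1.70 SE with all livers and 0.07 without that library. The same library was lowest for Serpina3m, at 7.73 against 9.37 to 10.17 in the others, and highest for Serpina3n, at 9.40. Serpina3m differed by 0.80 ± 0.42 SE with it and by 0.21 without it. Serpina3k was at 12.63, 12.81 and 12.88 in ad-ARID1A livers, against 12.98, 13.15 and 13.03 in ad-Cre livers, a difference of -0.28 ± 0.14 SE without overlap. Serpina3n differed by -0.35 ± 0.19 SE, and by -0.08 without library 3 of ad-Cre.

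The clotting and complement inhibitors had tight replicates. Serpinf2 was at 9.25, 9.21 and 9.27 in ad-ARID1A livers, against 9.37, 9.47 and 9.41 in ad-Cre livers, a difference of -0.17 ± 0.08 SE without overlap. Its sign was the reverse of that in both FVB comparisons with WT (0.55 in Homo and 0.58 in Het). The differences in mixed-strain Het against WT (-0.15 ± 0.13 SE) and in FVB Homo against Het (-0.025 ± 0.15 SE) were also below 0. The latter ran from -0.17 to 0.05 with 1 library left out, so its sign is not settled. These contrasts were not tested. Serpina10 differed by -0.24 ± 0.10 SE (-0.16 without library 3 of ad-ARID1A), Serpind1 by -0.09 ± 0.08 SE, Serping1 by -0.15 ± 0.11 SE, Serpinf1 by -0.01 ± 0.08 SE, Serpinc1 by 0.04 ± 0.09 SE and Serpina11 by 0.16 ± 0.15 SE.

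**Figure D4:**
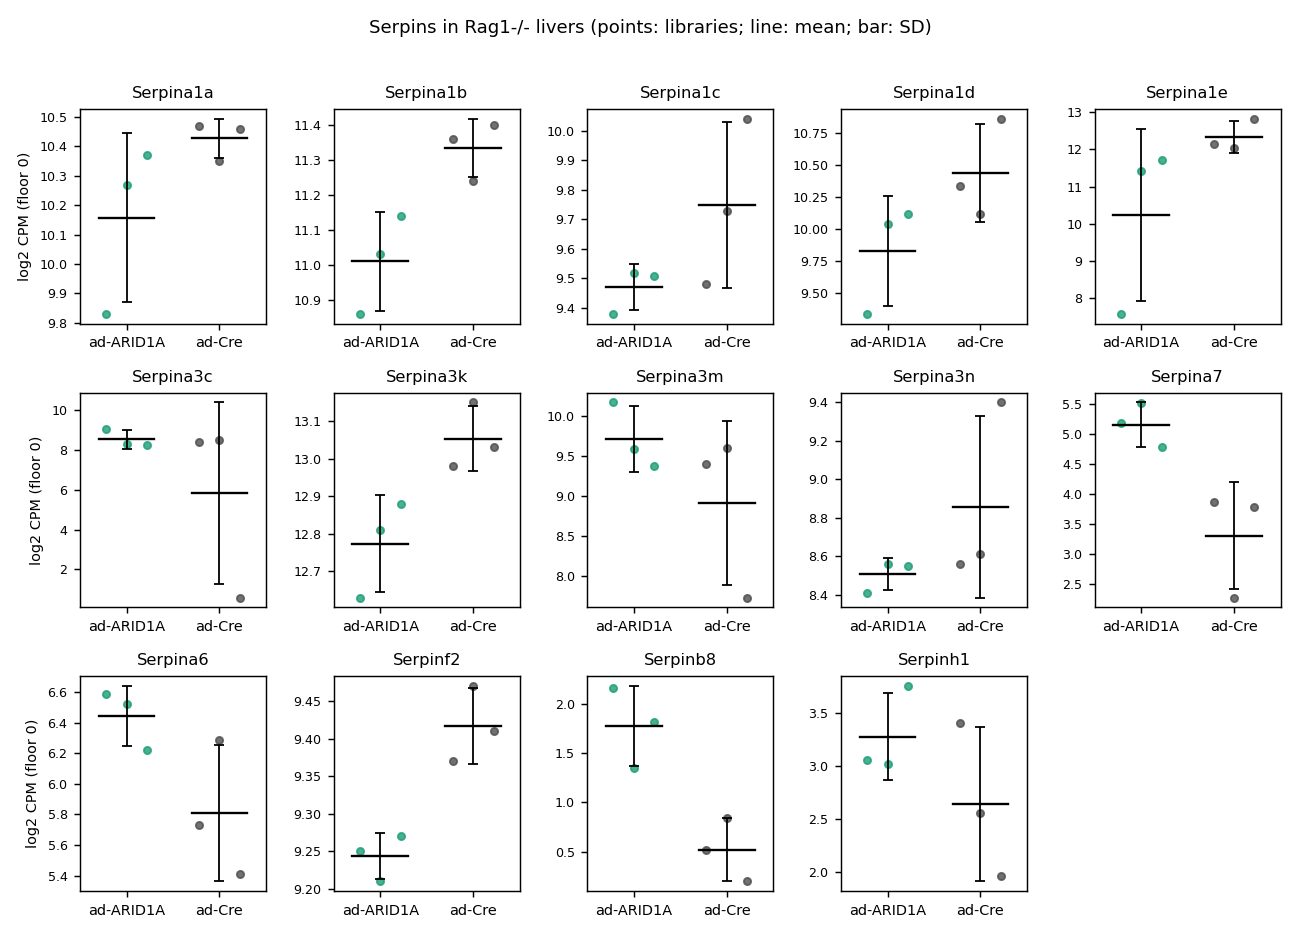
Levels of 14 serpins in Rag1-/- livers, ad-ARID1A (n = 3) left of ad-Cre (n = 3), on the log2 CPM scale with a floor at 0; points are libraries, lines means and bars SD. Serpina1e has 1 ad-ARID1A liver at 7.58, Serpina3c has 1 ad-Cre liver at 0.58, and Serpina7 of the ad-ARID1A livers lies above that of the ad-Cre livers.

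The classes follow a chosen list. In these livers Serpina12, counted among the other serpins, averaged 6.52 over all libraries, above the liver-secreted Serpina6 at 6.13. Among the other serpins, Serpinb8, an intracellular inhibitor of furin, was at 2.16, 1.35 and 1.82 in ad-ARID1A livers, against 0.52, 0.84 and 0.20 in ad-Cre livers. The groups did not overlap, and the difference was 1.26 ± 0.34 SE (limma adjusted p = 0.175). Vaspin (Serpina12) differed by -0.42 ± 0.16 SE, Serpinh1 by 0.64 ± 0.35 SE (0.30 without library 3 of ad-Cre), Serpine2 by 0.43 ± 0.31 SE, Serpinb6a by 0.32 ± 0.28 SE, Serpina5 by 0.25 ± 0.55 SE, Serpinb9 by 0.04 ± 0.24 SE, Serpina3f by -0.03 ± 0.29 SE, Serpina3g by -0.65 ± 0.44 SE, Serpina3i by 0.13 ± 0.49 SE and Serpina9 by -0.53 ± 0.38 SE.

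Lists of partners in these livers had medians from -0.07 to 0.19. Of 20 measured target proteases 12 were lower with a median of -0.07, led by Hgfac with -0.26 ± 0.08 SE and F11 with -0.21 ± 0.09 SE. Cofactors and receptors had a median of -0.05, led by Mug2 with -0.52 ± 0.13 SE and Tfpi with 0.67 ± 0.23 SE. Regulators had a median of 0.07, led by Nr1h4, the bile acid receptor, with 0.40 ± 0.09 SE and the thyroid hormone receptor Thra with 0.35 ± 0.17 SE. Collagen partners were higher in 11 of 13 with a median of 0.19, led by Col1a2 with 0.97 ± 0.34 SE and Col6a1 with 0.59 ± 0.23 SE.

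Stellate cell and fibroblast markers were higher in 9 of 11 in ad-ARID1A livers (499 to 580 CPM, against 300 to 527 CPM in ad-Cre livers), and endothelial markers in 9 of 9 (375 to 407 CPM, against 319 to 368 CPM). Hepatocyte markers were lower in 9 of 12 (77579 to 88057 CPM, against 88221 to 95617 CPM), and macrophage and Kupffer cell markers in 7 of 12 (274 to 354 CPM, against 287 to 385 CPM). Of 10 neutrophil markers 9 were at 0 or not listed, and no B or plasma cell marker was listed. Myc averaged 2.98 ± 0.79 in ad-ARID1A and 4.38 ± 0.55 in ad-Cre livers. The part of these in the serpin differences was not tested.

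**Figure D5:**
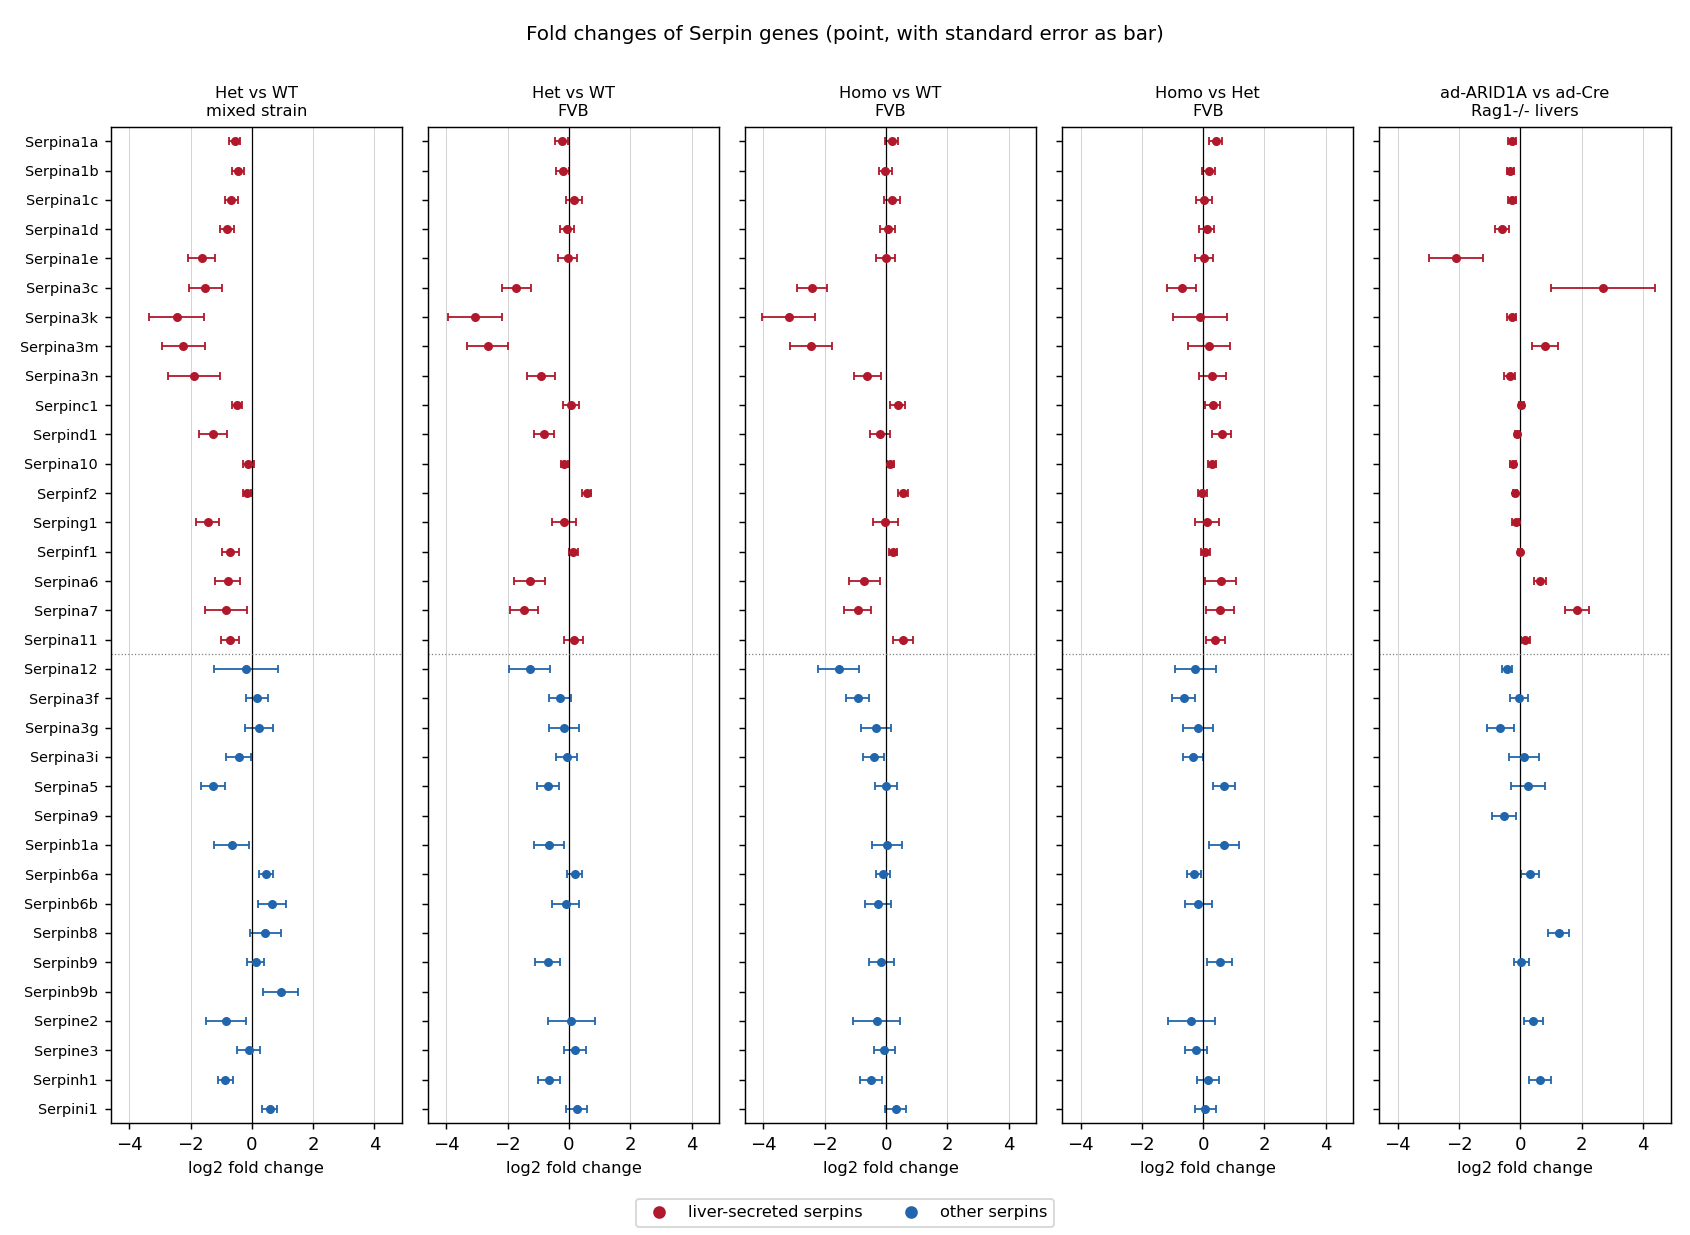
Log2 fold changes of the serpins described in each of the 5 comparisons, with SE as bars; red points are liver-secreted and blue points other serpins, and a positive value means higher in the group named first. Serpina3k, Serpina3m and Serpina3c are the lowest points in both FVB comparisons with WT, and all 18 red points lie below 0 in the mixed-strain tumors.

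Set side by side, the serpins with large differences were not the same in each setting. Serpina3k differed by -2.45 in mixed-strain Het, -3.18 in FVB Homo and -3.07 in FVB Het tumors, and by -0.28 in ad-ARID1A livers. Both FVB values share the same WT tumors. Serpina7 was lower in mixed-strain Het, FVB Homo and FVB Het tumors (-0.85, -0.93 and -1.47) and higher in ad-ARID1A livers (1.85). Serping1 differed by -1.43 in mixed-strain Het tumors, with -0.02 and -0.15 in FVB Homo and Het tumors and -0.15 in ad-ARID1A livers. None of these contrasts between tables was tested.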

How the data were processed

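RNA sequencing libraries of mouse liver tumors and livers were analysed from 3 deposited tables of gene values. Per the submitters' processing notes, the tools were Trim Galore, HISAT2, SAMtools and featureCounts with GRCm38/mm10, and versions are not given in these notes. Per the labels' protocols, RNA was taken with Trizol and miRNeasy kits and libraries with Nugen protocols. The values deposited by the authors are log2 CPM: those of the mixed-strain table behave as log2(CPM + 1), although its name says RPKM, the unit the analysis had been planned for, and those of the other tables are log2 CPM with values at or under 1 CPM listed at 0. The depth came from the spacing of the low values, of which 100% fell on multiples of 1 read (tolerance 0.1 reads) in all libraries except ad-ARID1A library 3, with 92.3%. Columns with no matching sample numbered 0. The treatment text gives Het and Homo the same genotype words, so the genotype field and titles were used. The ad-ARID1A samples carry ad-Cre column names in their descriptions and were matched to columns named for ARID1A by their number.

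The mixed-strain values were turned into CPM and then log2(CPM + 0.5), and genes with a mean of at least 0.5 CPM were kept. The other tables were used as deposited. Their filter, a mean log2 CPM of 0 or more, removed no gene, because values are floored at 0. The alternative with no filter is therefore the same fit in those tables. Each table was fitted on its own, and all FVB groups shared 1 fit, with limma 3.58.1 in R 4.3.3 (lmFit and eBayes with a variance trend, no replicate block). Tests were two-sided, with Benjamini-Hochberg adjustment over all genes of the table and a threshold of 0.05. The 5 comparisons and the lists of secreted serpins, partners and cell markers were chosen with earlier results of these data known. The text gives all liver-secreted members, other members that passed or whose groups did not overlap, the 10 other members of highest mean in each table, and, of each list, its counts and the genes of smallest p; other members are given for completeness. A few items are counted but not reported here by name. Lists are described by counts and medians, with no test. The fit was tested on simulated data. Alternatives changed the pseudocount, low-value filter, scaling, library weights, variance trend, block, groups fitted and libraries included.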

Additional observations from a re-analysis of the deposited data

Results flagged for a closer look

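In 13 of 152 combinations of a serpin and a group of 4 or 8 libraries (8.55%), the highest or lowest library lay far from the rest by Dixon's criterion. Chance alone flags about 1 in 20 such groups, and groups of 3 were not tested. Values are on the log2 scales of the report.

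In mixed-strain tumors, Serpinb6b was at 5.98 in Het library 5, against 2.01 to 3.08 in the other Het libraries, and Serpinb8 was at 3.08 in Het library 2, against -0.54 to 0.78. Serpina3c was at 5.41 in WT library 2, against 0.96 to 2.85 in the other WT libraries, and Serpinb1a at 4.60 in WT library 5, against 0.59 to 1.73.

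In FVB Homo tumors, Serpina6 was at 7.0 in library 1, against 5.93 to 6.03, and Serpina3f at 0.01 in library 4, with the other 3 listed at 0. In FVB Het tumors, library 3 had Serpina7 listed at 0, against 1.43 to 1.69, and Serpinb1a at 0.74, against 0 to 0.06. Serpinb6a was at 4.91 in Het library 2, against 5.15 to 5.18, and Serpinf1 at 8.07 in Het library 4, against 8.42 to 8.46. In FVB WT tumors, library 1 was low for Serpina11 (2.32, against 3.31 to 3.42) and Serpina1d (5.22, against 5.97 to 6.06), and library 4 was high for Serpina10 (7.19, against 6.83 to 6.89).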

How the results depend on the processing

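Counts of called serpins stayed at 0 in all 5 comparisons under the alternatives that kept all libraries or left out a chosen pair, with 1 exception. For FVB Het against WT with array weights 7 of 32 serpins were called, where 2287 of all 16140 genes were called. Leaving out 1 library at a time gave 0 to 1 called serpins for mixed-strain Het, 0 to 1 for FVB Homo and 0 to 2 for FVB Het against WT, and 0 to 0 for Homo against Het and for the Rag1-/- livers. The median of liver-secreted serpins in Rag1-/- livers was -0.27 with libraries centred on their medians (-0.16 otherwise) and -0.21 to -0.067 with 1 library left out. The median of other serpins for FVB Het was -0.48 to -0.084 with 1 library left out. Without both FVB WT libraries 1 and 2, signs turned for Serpinh1 (0.19) and Serpina6 (0.40) in Homo and for Serpinh1 (0.042) and Serpinb1a (0.065) in Het. Without both ad-ARID1A library 1 and ad-Cre library 3, a setting chosen after seeing the data, they turned for Serpina3m (-0.02), Serpina11 (-0.10), Serpina3c (-0.195) and Serping1 (0.005). These settings have fewer samples, and other causes were not tested.

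Deviations of same-numbered libraries correlated weakly, with a median of 0.05 in the mixed-strain set (0.02 for unlike numbers). The median was 0.10 for FVB Het against WT (-0.02) and 0.07 for FVB Homo against WT (-0.03). It was -0.02 for Homo against Het (0.01) and 0.01 in Rag1-/- livers (0.01). Pairs over 0.1 were 1 of 8 in the mixed-strain set, 2 of 4 for FVB Het, 1 of 4 for FVB Homo and none elsewhere. In that order, libraries correlated best with their own number in 2 of 8, 2 of 4 and 3 of 4. The count was 1 of 4 for Homo against Het and 1 of 3 in Rag1-/- livers. Numbers were not taken as pairs in the main fit. With the replicate block 0 serpins were called in each comparison, and of all genes 75 were called in the mixed-strain set (28 without), 1 for FVB Homo (7), 0 for FVB Het (4), 0 for Homo against Het (0) and 59 in Rag1-/- livers (45). The count over all genes also differed by more than 1.5 times with array weights (101 in the mixed-strain set, 21 for FVB Homo), with no filter (3 in the mixed-strain set), with log2(CPM + 1) (3 for FVB Homo, 0 for FVB Het), with only the groups compared (0 and 1), with a stricter filter at a mean of 2 log2 CPM (0 and 0), with either rescaling for FVB Het (7) and with no variance trend in Rag1-/- livers (1). Without the library pairs above it was 3 for FVB Homo, 1 for FVB Het and 0 in Rag1-/- livers, and 16 in the mixed-strain set without Het library 5 and WT library 2. With 1 library left out it ran from 8 to 138 in the mixed-strain set, 0 to 36 for FVB Homo, 0 to 256 for FVB Het, 0 to 3 for Homo against Het and 0 to 19 in Rag1-/- livers. Low depth limits the low serpins, most in the mixed-strain set, and the floor of 1 CPM limits them in the other tables.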

Other observations

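The share of Serpina1e in the summed level of Serpina1a to Serpina1e fell into separate ranges among libraries of the same label. In mixed-strain WT tumors it was 28.7%, 27.3% and 30.1% in libraries 1, 6 and 8 and 8.30% to 12.7% in the other 5, while mixed-strain Het tumors had 5.29% to 11.5%. All 12 FVB tumors had 2.80% to 5.84%. The Rag1-/- livers, also labelled FVB, had 4.48%, 34.9% and 38.4% in ad-ARID1A and 42.5% to 50.7% in ad-Cre livers. These are values without a test, and reads shared between the copies limit them.

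Promoter motifs were counted on either strand of the 300-base windows, and a match says only that the letters are there. The C/EBP-like TTGCNNAA was found in 6 of 13 windows of liver-secreted serpins, 8 of 40 of other serpins and 10.8% of all 32851 promoters. Those 6 were Serpina1a, Serpina1b, Serpina1d, Serpina1e, Serpina7 and Serpinc1. Most of them are thus near copies of a single promoter, and the count does not describe the class. The STAT-like TTCNNNGAA was found in 1 of 13, 7 of 40 and 8.30%. TATAAA was found in 2 of 13, 13 of 40 and 13.6%.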
